A study of Mus musculus with 30 samples.

Results

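The dystrophin-glycoprotein complex was represented by 8 genes: Dmd, Utrn, Dag1, Sgca, Sgcb, Sgcd, Sntb1 and Dtna. Each was found by its gene symbol, and for each the longest transcript row with a mean of over 20 reads was to be kept; every one of the 8 genes stood on 1 row. They were 8 of 56951 gene symbols in the tables, and all 8 were among the 12030 genes abundant enough to be tested (a mean over 20 reads and a mean over 0.5 FPKM, fragments per kilobase of exon scaled to the library's total). The samples were gastrocnemius muscles, collected together with the plantaris, of male wild-type C57BL/6J mice that lived alone in cages with a running wheel. The LD group (n = 14) was kept under 12 h of light and 12 h of darkness at fixed clock times. The ADV group (n = 16) had its light cycle moved forward by 8 h every 4 days, a model of chronic jet lag. Both schedules lasted 64 weeks, from 14 to 78 weeks of age, and 1 poly(A)-enriched stranded library was sequenced per mouse. The question was whether the RNA of the complex differed in abundance, or in its spread between mice, after the shifting schedule.

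The complex joins the actin cytoskeleton inside a muscle fiber to laminin in the basement membrane outside it. Dystrophin lies under the membrane and holds on to dystroglycan, which crosses it and binds laminin through sugar chains; the sarcoglycans are membrane proteins beside dystroglycan, while dystrobrevin and the syntrophins are adaptors on the inner face. Loss of dystrophin, of a sarcoglycan or of the sugar chains of dystroglycan causes muscular dystrophy, and utrophin, a relative of dystrophin, can take over part of its role.

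The libraries held between 18875468.5 and 28512674 read pairs on exons. Mice are named by the number in their label, 21 to 36. The libraries of ADV mice 25 and 34 stood apart from the other 28. Their slope of log2 CPM (counts scaled to library size) against exon length, taken as deviations from the mean of all mice per doubling of length, was -0.106 and -0.221, against -0.002 to 0.050 in LD and -0.044 to 0.028 in the other ADV mice. Their slope against exon GC content was 0.263 and 0.325 per 10 percentage points, against -0.165 to 0.041 in LD and -0.077 to 0.181 in the other ADV mice. Member results that rest on these 2 mice, and list calls lost without them, are given with and without them. The tissue label matched the fiber markers. The 8 genes listed for fast fibers, with the general muscle genes Acta1 and Ckm among them, summed to between 69127 and 97923 FPKM in every library. The 7 slow fiber genes summed to between 39.0 and 1937 FPKM.

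Of the 8 members, only Sgcb (β-sarcoglycan) differed between the groups at an FDR under 0.05, and it was lower in ADV (edgeR's quasi-likelihood test, Benjamini-Hochberg FDR over the 12030 genes). Of all 12030 genes, 10.8% passed that limit, 5.2% lower and 5.61% higher in ADV. None of the 8 passed the limit together with a fold change over 1.3, which 2.09% of all genes passed. DESeq2 also called 0 of the 8 with the fold change limit and 1 without it, and at an unadjusted p under 0.05 the edgeR count was again 1 of 8, against 30.1% of all genes. Across the 8 members the log2 fold change of ADV against LD ran from -0.21 (Sgcd) to 0.20 (Sntb1), and 6 of 8 were below 0. The median over all genes tested was 0.003, and the median size of a change was 0.095.

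**Figure D1:**
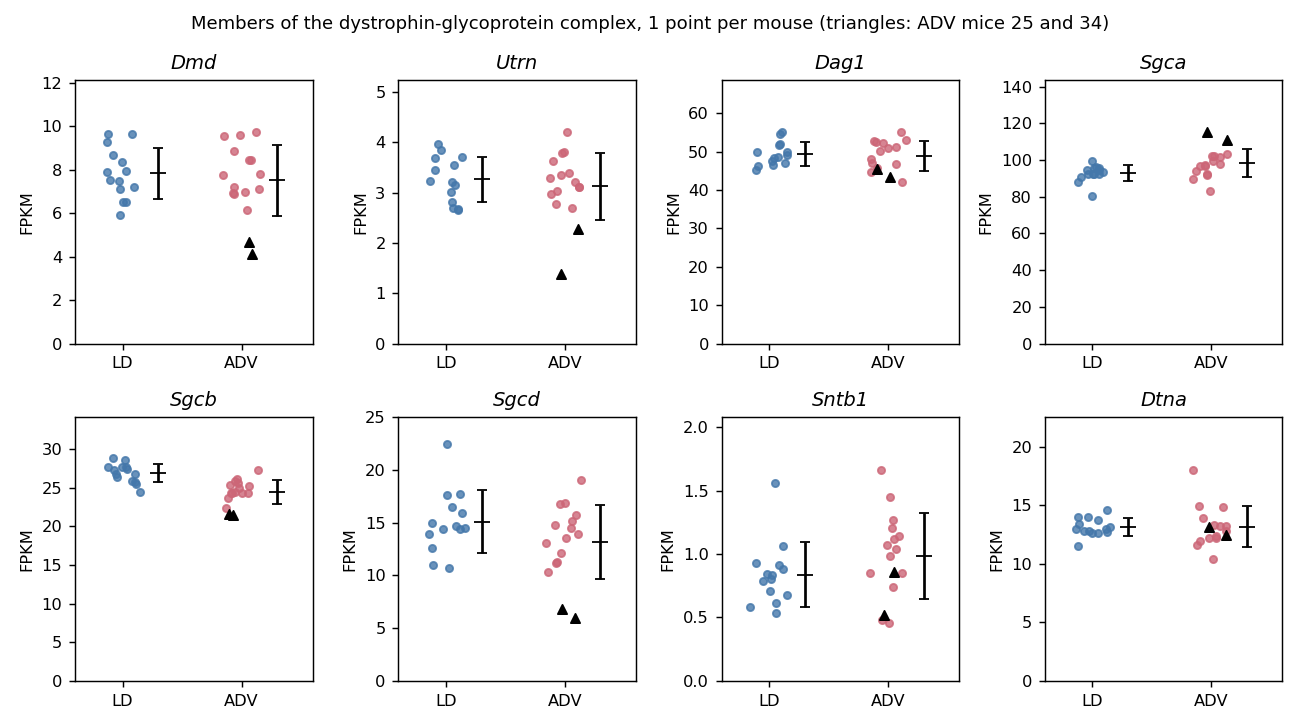
FPKM of the 8 members, 1 point per mouse, in 14 LD (blue) and 16 ADV (red) mice. The vertical axes start at 0, the crosses and bars are the mean ± SD, and the triangles are ADV mice 25 and 34. Sgcb sits lower in ADV (21.4 to 27.3 FPKM) than in LD (24.5 to 28.8 FPKM), and the triangles are the lowest points for Dmd, Utrn, Sgcb and Sgcd and the highest for Sgca.

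Dystrophin, the long rod between actin and dystroglycan, is encoded by Dmd on the X chromosome. Its row was ENSMUST00000114000.8, chrX:81992509-84249747 on the plus strand (GRCm39), with 14753 exon bases. These are 61.4% of the bases in exons annotated for the gene in GENCODE vM39 that overlap this span. It collected a mean of 2759 reads, and an antisense gene, Gm61724, overlaps 0.68% of its exon bases. Dmd had 5.90 FPKM in the lowest LD mouse, 7.72 in the median and 9.64 in the highest. In ADV it had 4.13, 7.50 and 9.72 FPKM. The ADV range covered the whole LD range: 8 ADV mice lay above and 8 below the LD median, and the 2 mice under every LD value were mice 25 (4.68 FPKM) and 34. The means were 7.84 ± 1.17 (SD, n = 14) and 7.52 ± 1.63 FPKM (n = 16). The edgeR difference was -5.11% and did not pass the test (95% interval -17.1 to 8.63%, log2 fold change -0.08 ± 0.10 SE, FDR = 0.627). Without mice 25 and 34 the log2 fold change was 0.01.

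Utrophin (Utrn) is the autosomal relative of dystrophin, found in adult fibers mainly at the nerve and tendon junctions. The row, ENSMUST00000218635.2 at chr10:12259124-12745109 on the minus strand, had 11652 exon bases and a mean of 904 reads. Its lowest, median and highest values were 2.65, 3.22 and 3.97 FPKM in LD, and 1.37, 3.17 and 4.19 FPKM in ADV. The groups overlapped over the LD range, and again mice 34 (1.37 FPKM) and 25 (2.28 FPKM) alone lay below it. The edgeR difference was -5.21% (95% interval -17.2 to 8.46%, FDR = 0.618), and the log2 fold change moved from -0.08 to 0.005 without those 2 mice.

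Since utrophin can stand in for dystrophin, the Utrn to Dmd ratio of FPKM was taken within each mouse. It was 0.419 ± 0.046 (SD) in LD, with a range of 0.353 to 0.490, and 0.419 ± 0.060 in ADV, with a range of 0.320 to 0.534. In both groups Dmd was the more abundant per length in every mouse. The difference in the mean log2 ratio was -0.005 and did not pass the test (two-sided permutation test with 100000 resamples, p = 0.946). The SD of the log2 ratio between mice was 0.160 in LD and 0.208 in ADV.

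Dystroglycan (Dag1) is made as 1 protein and cut into an outer, laminin-binding part and a part that spans the membrane. The row, ENSMUST00000191899.6 at chr9:108081833-108141157 on the minus strand, had 5655 exon bases and the most reads of the 8 members, a mean of 6779. Dag1 had 45.2, 48.7 and 55.1 FPKM in the lowest, median and highest LD mouse, and 42.1, 49.0 and 55.0 FPKM in ADV. No ADV mouse lay above the LD range and 3 lay below it. The difference was -2.41% with a 95% interval of -7.72 to 3.20% (edgeR, FDR = 0.580), the narrowest interval after that of Sgcb.

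α-Sarcoglycan (Sgca), the muscle-restricted member with a large outer domain, was read on ENSMUST00000103162.8, chr11:94853617-94867153 on the minus strand, with 1703 exon bases and a mean of 3995 reads. It was the most abundant member per length, with 80.5, 93.1 and 99.2 FPKM in the lowest, median and highest LD mouse and 83.1, 97.6 and 115.0 FPKM in ADV. Of the ADV mice 12 lay above the LD median and 7 above the whole LD range, led by mice 25 (115.0 FPKM) and 34 (110.8 FPKM). The means were 92.8 ± 4.42 and 98.4 ± 7.75 FPKM (SD), and the difference of 4.96% did not pass the test (95% interval -1.17 to 11.5%, edgeR FDR = 0.270). The log2 fold change, 0.07, was 0.03 without mice 25 and 34 and -0.01 once the GC content trend of each library was removed. Sgca has the highest exon GC content of the 8, 56.5%.

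β-Sarcoglycan (Sgcb), one of the core sarcoglycans on which assembly of the others depends, was read on ENSMUST00000081170.9, chr5:73790092-73805133 on the minus strand. This row has 3775 exon bases at 43.9% GC and a mean of 2362 reads. Sgcb had 24.5 FPKM in the lowest LD mouse, 27.1 in the median and 28.8 in the highest. In ADV it had 21.4, 24.4 and 27.3 FPKM. Of the 16 ADV mice, 15 lay below the LD median and 9 below the lowest LD mouse, while 7 overlapped with the LD range. The mean was 26.9 ± 1.21 FPKM (SD, n = 14) in LD and 24.5 ± 1.599 FPKM (n = 16) in ADV. The log2 fold change was -0.16 ± 0.04 (SE), or -10.2% (95% interval -14.6 to -5.62%), with an edgeR FDR of 0.00694. In bulk muscle, fewer cells of a type and less RNA per cell cannot be told apart.

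The Sgcb difference moved with the GC content trend of the libraries. The trend averaged -0.066 ± 0.063 (SD) in LD and 0.058 ± 0.115 in ADV per 10 percentage points, and 0.024 ± 0.073 in ADV without mice 25 and 34. With each library's trend removed, the Sgcb log2 fold change was -0.08 (edgeR FDR = 0.124). In that fit 0 of 8 members passed the FDR limit, against 5.01% of all genes. At an unadjusted p under 0.05 edgeR had 1 of 8 (Sgcb), and the share of all genes at that limit was not taken for this fit. With the trend kept, 30.1% of all genes reached that limit. Without mice 25 and 34 the Sgcb log2 fold change was -0.13 (FDR = 0.0164), the 1 call among 8 members where 6.19% of all genes were called. A score of clock genes also differed between the groups, -1.10 ± 1.21 in LD and 0.97 ± 0.81 in ADV (difference of mean z scores). With this score as a covariate the Sgcb log2 fold change was -0.13 ± 0.05 (SE, edgeR FDR = 0.325). In that fit 0 of all 12030 genes passed the FDR limit, so the loss of the call was not particular to Sgcb.

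**Figure D2:**
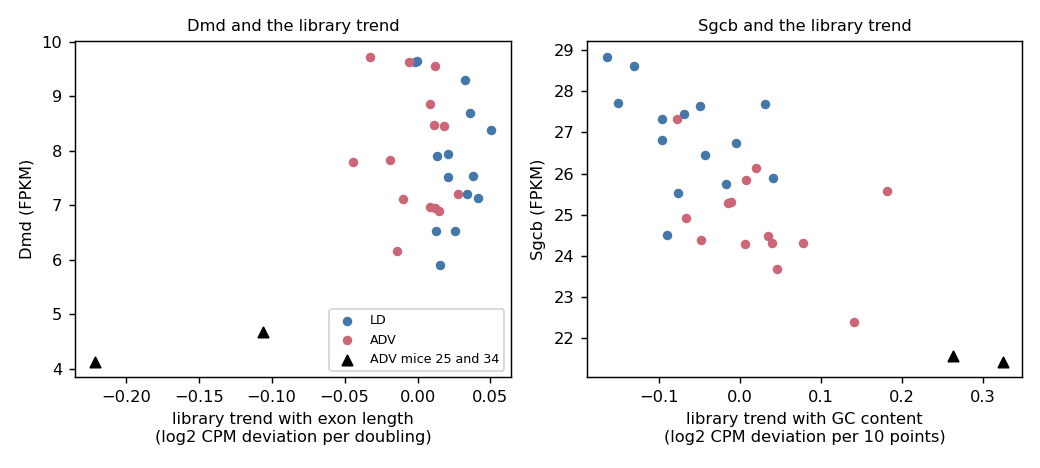
Left, Dmd (FPKM) against each library's trend with exon length (log2 CPM deviation per doubling). Right, Sgcb (FPKM) against each library's trend with GC content (log2 CPM deviation per 10 percentage points). Points are LD (blue) and ADV (red) mice, and the triangles are ADV mice 25 and 34. They lie at the ends of both horizontal axes, with 4.68 (mouse 25) and 4.13 (mouse 34) FPKM of Dmd and 21.6 and 21.4 FPKM of Sgcb.

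δ-Sarcoglycan (Sgcd), the other core sarcoglycan, was read on ENSMUST00000077221.6, chr11:46869612-47270349 on the minus strand. Its 1602 exon bases are 17.2% of those in annotated exons of the gene that overlap this span. Other exons of Sgcd were thus not counted on this row, which had a mean of 547 reads. Sgcd had 10.7, 14.6 and 22.4 FPKM in the lowest, median and highest LD mouse, and 5.99, 13.7 and 19.1 FPKM in ADV. The 3 ADV mice below the LD range were mice 34 (5.99 FPKM), 25 (6.80 FPKM) and 24 (10.4 FPKM), and none lay above it. The means were 15.1 ± 2.98 and 13.2 ± 3.51 FPKM (SD). The difference, -13.6%, was the most negative among the members but did not pass the test (95% interval -27.2 to 2.68%, edgeR FDR = 0.244). Without mice 25 and 34 the log2 fold change was -0.11 in place of -0.21.

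Sgcb and Sgcd have upstream windows free of annotated exons, while the window of Sgca overlaps annotated exons. Sgcb was the member called, and Sgcd the member that followed Dmd most closely across mice. For these reasons the 250 bases before the deposited starts of Sgcb and Sgcd are shown. They were read 5′ to 3′ on the minus strand of GRCm39, from chr5:73805134-73805383 for Sgcb and chr11:47270350-47270599 for Sgcd. Capitals mark the match to 1 of 3 motifs searched on both strands, CAGCTG (an E-box of myogenic factors), CACGTG (an E-box of clock factors) and GGGCGG (a GC box).
Sgcb: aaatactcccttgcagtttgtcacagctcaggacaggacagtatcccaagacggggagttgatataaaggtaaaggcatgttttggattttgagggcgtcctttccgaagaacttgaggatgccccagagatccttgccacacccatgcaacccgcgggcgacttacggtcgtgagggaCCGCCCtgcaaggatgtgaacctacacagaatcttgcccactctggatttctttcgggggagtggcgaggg
Sgcd: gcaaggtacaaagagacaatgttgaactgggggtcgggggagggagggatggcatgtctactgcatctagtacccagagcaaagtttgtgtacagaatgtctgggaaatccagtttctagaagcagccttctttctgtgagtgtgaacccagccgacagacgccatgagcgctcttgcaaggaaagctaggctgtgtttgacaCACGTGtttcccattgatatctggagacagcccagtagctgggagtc
The Sgcb window held 1 GC box, in the orientation CCGCCC, 71 to 66 bases before the start, with 11 CpG sites and 53.6% GC. The Sgcd window held 1 CACGTG, 47 to 42 bases before the start, with 5 CpG sites and 51.2% GC. Of 12028 such windows of the genes tested, 56.5% held GGGCGG, 8.29% CACGTG and 12.0% CAGCTG, the median GC content was 59.2% and the median number of CpG sites 15. A match here is a run of letters, not a site shown to be bound.

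β1-Syntrophin (Sntb1), an adaptor that recruits signaling proteins, was the least abundant member. The row, ENSMUST00000039769.13 at chr15:55499784-55770345 on the minus strand, had 4906 exon bases and a mean of 109.8 reads. It had 0.538, 0.822 and 1.56 FPKM in the lowest, median and highest LD mouse, and 0.453, 1.01 and 1.66 FPKM in ADV. Of the ADV mice 12 lay above the LD median, but the ranges overlapped almost fully. The difference of 14.5% had the widest interval of the 8, -8.89 to 44.0% (edgeR FDR = 0.429).

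α-Dystrobrevin (Dtna) binds dystrophin and the syntrophins. Its row, ENSMUST00000115832.4 at chr18:23548499-23792772 on the plus strand, had 6254 exon bases and a mean of 2015 reads. The exon bases are 30.1% of those in annotated exons of this gene of many isoforms that overlap this span. Antisense genes Gm47898 and Gm58564 overlap 1.39% and 3.82% of the exon bases, and reads of the pair cannot be told apart if the counting ignored strand. Dtna had 11.6, 13.0 and 14.6 FPKM in the lowest, median and highest LD mouse, and 10.5, 13.0 and 18.05 FPKM in ADV. ADV mice lay outside the LD range on both sides, 1 below and 3 above, with mouse 22 the highest. The means were 13.2 ± 0.754 and 13.2 ± 1.72 FPKM (SD), and the difference was -0.82% (95% interval -7.78 to 6.66%, edgeR FDR = 0.900).

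**Figure D3:**
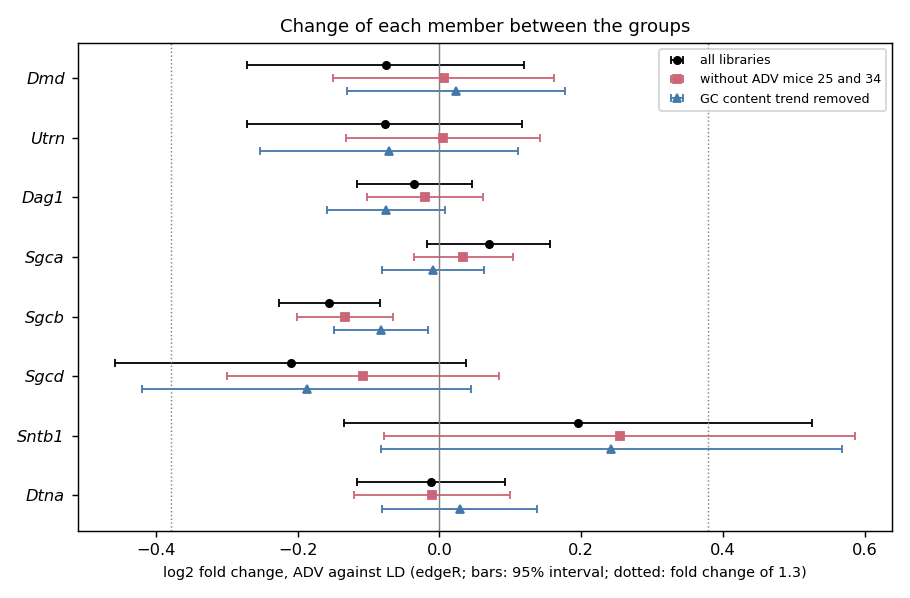
Log2 fold change of ADV against LD for each member by edgeR, with 95% intervals, from all libraries (black circles), without ADV mice 25 and 34 (red squares) and after removal of the libraries' GC content trends (blue triangles). The dotted lines are a fold change of 1.3. Sgcb alone lies below 0 with its whole unadjusted interval in all 3 fits, at -0.16, -0.13 and -0.08, but with the GC content trend removed its FDR was 0.124, above the limit.

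Per length, the order of mean FPKM in LD was Sgca, Dag1, Sgcb, Sgcd, Dtna, Dmd, Utrn and Sntb1. The LD ranges of neighbours in this order did not overlap, apart from Sgcd and Dtna, of which Sgcd was the higher in 11 of 14 mice. In LD, Sgca was 1.88 times Dag1, Dag1 1.83 times Sgcb, Dmd 2.41 times Utrn and Utrn 3.89 times Sntb1 by mean FPKM. In ADV the order was the same except for Dtna and Sgcd, whose means, 13.2 FPKM each, could not be set apart. The ADV ranges of Sgcd and Dmd, of Dmd and Utrn, and of Utrn and Sntb1 overlapped between mice. Yet in each pair the first was higher within 16 of 16 mice. The overlaps rest on mice 25 and 34, since without them the ranges in none of these pairs overlapped, as in LD.

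The members fell into a steady and a variable set by their coefficient of variation (CV) of FPKM between LD mice. It was 4.51% for Sgcb, 4.76% for Sgca, 5.73% for Dtna and 6.21% for Dag1, against 13.9% for Utrn, 14.9% for Dmd, 19.7% for Sgcd and 30.4% for Sntb1. The median over all genes tested was 12.4%. Sgcb was steadier in LD than most genes, since 2.41% of all genes had a lower CV. The CV that counting error alone gives was 2.01% for Sgcb, 1.61% for Sgca, 2.23% for Dtna and 1.21% for Dag1, and 3.29% for Utrn, 1.89% for Dmd, 4.14% for Sgcd and 9.89% for Sntb1. Beside the observed CV it was thus a larger part for Sgcb, Sgca and Dtna than for Dmd, Utrn or Sgcd. Among the sarcoglycans of the complex, then, the level of Sgcd varied between mice of the same group by several times more than that of Sgca or Sgcb.

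In ADV every one of the 8 members had a larger SD of log2 CPM than in LD, as did 62.9% of all genes, and none of the 8 differences passed the test of spread (limma on absolute deviations from the group mean, FDR = 0.491 for Dtna to 0.826 for Dag1). That test called 0.0333% of all genes, 0.0249% as wider in ADV. At an unadjusted p under 0.05 it gave 1 of 8 members, Dtna, and 10.1% of all genes. In ADV the CV was 21.7% for Dmd, 21.2% for Utrn, 26.6% for Sgcd and 7.88% for Sgca. Without mice 25 and 34 these were 14.5%, 12.7%, 17.4% and 5.86%, close to or below the LD values for the first 3. Without those mice 6 of 8 members had the larger SD in ADV, as did 49.6% of all genes. Dtna did not rest on them: its CV was 5.73% in LD, 13.1% in ADV and 13.9% in ADV without mice 25 and 34, against a median of all genes of 14.3% in ADV. ADV mouse 22 carried part of it: the log2 ratio of the SDs of Dtna, 1.29, was 0.80 without that mouse.

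**Figure D4:**
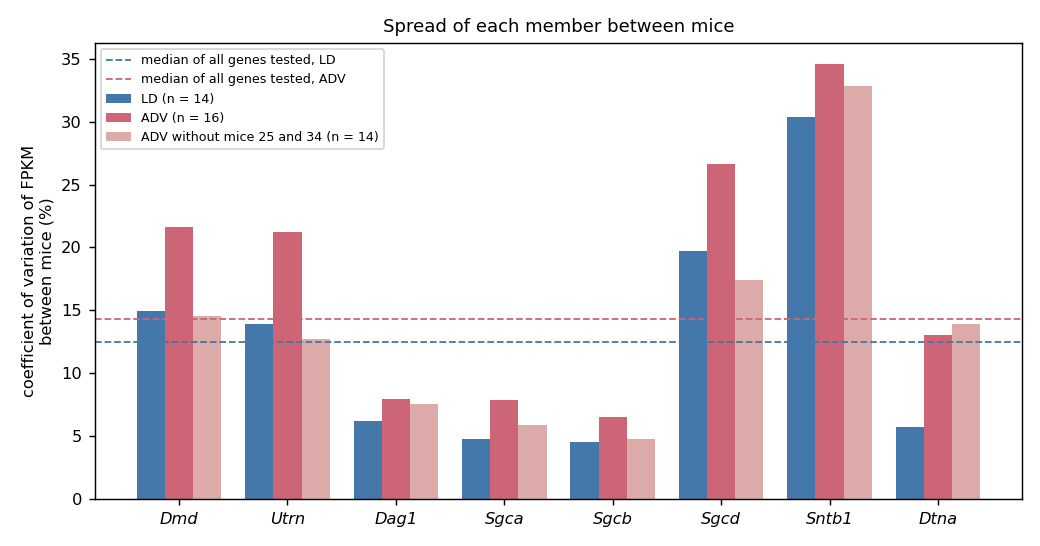
CV of FPKM between mice (%) for each member in LD (blue, n = 14), ADV (red, n = 16) and ADV without mice 25 and 34 (pale red, n = 14). Dashed lines are the medians of all genes tested, 12.4% in LD and 14.3% in ADV. For Dmd, Utrn and Sgcd the pale bars return to or below the blue ones, while for Dtna the pale bar stays at 13.9%.

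Within each group, mice with more Dmd had more Sgcd. Over the 14 LD mice, log2 FPKM of Dmd and Sgcd had a Pearson r of 0.861 (permutation p = 7.0e-05, 0.00049 adjusted over 14 relations of Dmd with the other members) and a Spearman rho of 0.793 (p = 0.00106, adjusted 0.00742). Leaving out the 2 LD mice farthest from the median of Dmd gave r = 0.814. Over the 16 ADV mice r was 0.948 and rho 0.900 (for both, p = 1e-05, the smallest that 100000 permutations can give, adjusted 0.00014), and over the 14 ADV mice without 25 and 34, which lie apart, r was 0.825. With each library's length trend removed, r was 0.865 in LD and 0.676 in ADV.

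Dmd and Utrn were related more loosely. In LD r was 0.710 (permutation p = 0.00521, adjusted 0.0122) and rho 0.723 (p = 0.00491, adjusted 0.0229), with r = 0.673 without the 2 farthest mice. In ADV r was 0.836 (p = 0.00021, adjusted 0.00098) and rho 0.626 (p = 0.0109, adjusted 0.0383), and r was 0.507 without mice 25 and 34. With each library's length trend removed, r of Dmd with Utrn was 0.580 in LD and 0.476 in ADV. With the GC content trend removed it was 0.532 in LD and 0.776 in ADV. Sgca ran the other way from Dmd in ADV, with r = -0.709 (permutation p = 0.00244, adjusted 0.00854) and rho = -0.503 (p = 0.0491, adjusted 0.137). That relation, and the one of Dmd with Sgcb in ADV (r = 0.693, p = 0.00378, adjusted 0.0106, rho = 0.359, p = 0.17, adjusted 0.397), rest on mice 25 and 34, since r without them was -0.362 and 0.208. None of the other relations of Dmd, with Dag1, Sntb1 or Dtna in either group or with Sgca or Sgcb in LD, had an adjusted p under 0.05.

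**Figure D5:**
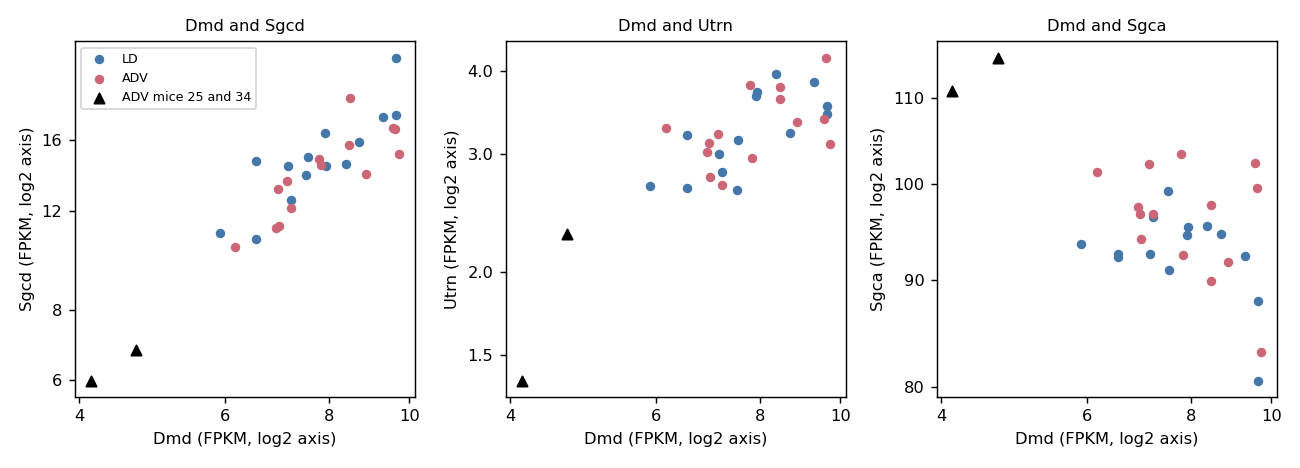
FPKM of Sgcd, Utrn and Sgca against FPKM of Dmd, 1 point per mouse, on log2 axes, for LD (blue) and ADV (red), with ADV mice 25 and 34 as triangles. Sgcd follows Dmd in both groups (r = 0.861 in LD and 0.948 in ADV), and the triangles lie at the low end for Sgcd and Utrn and at the top for Sgca.

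The trend of a library with exon length was set beside the members after the values had been seen, in 16 relations of 8 members and 2 groups. In ADV the slope and log2 CPM had r = 0.753 for Dmd (permutation p = 0.00255, adjusted 0.0204), 0.830 for Utrn (p = 0.00417, adjusted 0.0222) and 0.778 for Sgcd (p = 0.00255, adjusted 0.0204). The rank correlations were 0.332, 0.338 and 0.353 (permutation p = 0.208, 0.2 and 0.18, adjusted 0.475 each). Without the 2 mice farthest from the median slope r was 0.040, -0.084 and 0.031, so the relations rest on those mice. In LD r was -0.163, 0.096 and -0.381, none with an adjusted p under 0.05.

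Over all 30 mice, after the group means were taken out, the 5 genes tested whose log2 CPM was most like that of Dmd were Birc6 (r = 0.922), Sgcd (0.919), Smg1 (0.916), Shprh (0.911) and Mga (0.911), given as a description. Sgcd thus ranked 2nd among all genes tested, Utrn 85th (r = 0.788) and Sgca 11862nd (r = -0.618). For Utrn they were Vps13c (0.863), Pdpr (0.857), Lyst (0.849), Diaph2 (0.845) and Tnrc6b (0.844), with Dmd in 29th and Sgcd in 36th place. Without mice 25 and 34, r with Dmd was 0.880 for Birc6, 0.853 for Smg1 and 0.835 for Sgcd, and with the length trend removed it was 0.707 for Sgcd and 0.789 to 0.812 for the other 4, so the 2nd place of Sgcd did not hold there. Without the 2 mice r of Utrn with Vps13c was 0.594. These points share libraries, and long transcripts were frequent: the 100 genes most like Dmd had a median exon length of 9185 bases and a median genomic span of 89449 bases, against 2791 and 20800.5 bases over all genes tested. Sgcd has a short row, 1602 exon bases, but a span of 400738 bases.

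The rest of the complex gave no call, where 10.8% of all genes passed the FDR limit. Of 12 further subunits and partners 8 were tested, and edgeR called 0 at an FDR under 0.05 (DESeq2 also 0). At an unadjusted p under 0.05, which 30.1% of all genes reached, edgeR had 1, Sspn. The median log2 fold change was -0.04. Sgcz, Sntg1, Sntg2 and Nos1ap were below the limits for testing.

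Among 9 genes for ligands of dystroglycan, all tested, 1 was lower in ADV and 0 higher (edgeR; DESeq2 also called 1), against 5.2% and 5.61% of all genes, and the median log2 fold change was 0.01, or -0.08 with the GC content trend removed. That gene was Lama2, the laminin chain of the muscle basement membrane that dystroglycan binds. It fell from 8.06 ± 0.804 to 6.96 ± 0.903 FPKM (SD), a log2 fold change of -0.23 ± 0.06 (SE, edgeR FDR = 0.0205), with an FDR of 0.0343 after removal of the GC content trend and 0.0435 without mice 25 and 34. The most abundant ligands were biglycan Bgn (29.7 ± 4.23 and 28.997 ± 6.56 FPKM, FDR = 0.693) and Lamb2 (23.4 ± 2.13 and 25.6 ± 3.82 FPKM, FDR = 0.206). Of 17 genes for the sugar chains of dystroglycan, all tested, edgeR and DESeq2 called 0, and the median was 0.04. At an unadjusted p under 0.05, which 30.1% of all genes reached, edgeR had 2 (Pomk and Dolk). With the GC content trend removed 1 of the 17 was called, Dpm1 (log2 fold change 0.16, edgeR FDR = 0.0301), against 5.01% of all genes. The most abundant of them was B3galnt2 (27.4 ± 4.64 and 26.2 ± 4.08 FPKM in LD and ADV, edgeR FDR = 0.514).

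Of 15 tested genes for links of the complex to filaments and costameres, 2 were higher and 1 lower in ADV by edgeR, against 5.61% and 5.2% of all genes, and DESeq2 called 4, with Ank2 in addition. The median log2 fold change was 0.07, or -0.01 with the GC content trend removed. Flnc, the filamin that binds sarcoglycans, rose from 129 ± 23.8 to 199 ± 65.2 FPKM (log2 fold change 0.61, edgeR FDR = 0.0073). The adhesion kinase Ilk rose by 0.14 on the log2 scale (FDR = 0.0498, 0.262 with the GC content trend removed and 0.121 without mice 25 and 34), and talin Tln2 fell by 0.17 (FDR = 0.0310, 0.0514 without mice 25 and 34). In the parallel, integrin-based adhesion to laminin, 2 of 7 genes were higher and 0 lower, with a median of 0.01. They were Itga5 (2.696 ± 0.374 and 4.03 ± 1.58 FPKM, log2 fold change 0.56, FDR = 0.0121) and the tetraspanin Cd151 (38.3 ± 1.77 and 41.9 ± 2.50 FPKM, 0.12, FDR = 0.0207, 0.129 with the GC content trend removed). Of 11 membrane repair genes 1 was higher and 0 lower, the caveolar coat gene Cavin1 (37.5 ± 4.63 and 43.6 ± 6.42 FPKM, 0.20, FDR = 0.0400, 0.230 with the GC content trend removed and 0.0684 without mice 25 and 34), with a median of 0.02. The most abundant of these were Anxa6 (89.3 ± 4.93 and 90.9 ± 7.37 FPKM, FDR = 0.879) and Trim72 (72.1 ± 9.41 and 81.4 ± 10.4 FPKM, FDR = 0.0750).

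Lists of cell type markers also differed in direction between the groups. All 5 adipocyte, 7 slow fiber and 4 tested Schwann cell markers had a higher fitted level in ADV (median log2 fold change 0.78, 0.50 and 0.46). All 6 fibroblast markers had a lower one (-0.18), and of 5 tested leukocyte markers 1 had a higher one (-0.27). The median size of a change over all genes was 0.095. With the GC content trend removed the log2 fold change of the fibroblast markers Dcn and Lum was above 0 (0.03 and 0.06). That of the adipocyte marker Retn, 0.01 with the trend kept, was then below 0 (-0.02). At the FDR limit, which 10.8% of all genes passed, edgeR called 2 of 8 endothelial markers as higher in ADV, Pecam1 (FDR = 0.0323, 0.0604 with the GC content trend removed and 0.0576 without mice 25 and 34) and Emcn (FDR = 0.00945), and the 8 summed to 72.7 to 99.3 FPKM in LD and 84.5 to 110.2 in ADV. Of 6 fibroblast markers 1, Pdgfra, was lower, with sums of 265 to 341 and 227 to 354 FPKM, and of 6 smooth muscle and pericyte markers 1, Tagln, was higher (FDR = 0.0328, 0.0743 with the GC content trend removed and 0.0667 without mice 25 and 34), with sums of 84.9 to 126 and 94.96 to 150 FPKM. None of the fast fiber, slow fiber, adipocyte, Schwann cell, leukocyte, satellite cell or synaptic markers tested passed the edgeR limit, and no listed marker was at 0 in all libraries. At an unadjusted p under 0.05, which 30.1% of all genes reached, edgeR had 4 of 6 fibroblast, 3 of 5 adipocyte, 3 of 4 Schwann cell, 1 of 8 fast fiber and 1 of 5 leukocyte markers and none of the 7 slow fiber markers. DESeq2 called 1 adipocyte (Lep), 3 Schwann cell, 2 endothelial, 2 smooth muscle and pericyte and 1 fibroblast marker at an FDR under 0.05. The share of all genes that DESeq2 called at that limit was not taken. The adipocyte markers summed to 8.72 to 77.2 FPKM in LD and 5.86 to 212 in ADV, and those of Schwann cells to 12.9 to 30.03 and 14.6 to 53.2 FPKM. The part of these differences in the Sgcb and Lama2 values was not tested.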

How the data were processed

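Gastrocnemius muscle of 14 LD and 16 ADV mice was sequenced, 1 library per mouse. The authors deposited FPKM values and unnormalized counts for 57186 transcripts, made from Trimmomatic-trimmed reads by STAR 2.7.10a on GRCm39, removal of alignments with a mapping quality under 10, and counting on exons with HOMER 4.11 (versions per the labels). The deposited values are estimated counts, because HOMER counts each mate as 0.5 read: 14.8% were not whole, and all were rounded. Whether counting used strand is not given in the sources used here. Deposited FPKM equal the counts divided by exon length and library total to within 5.0e-04.

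The test took genes averaging over 20 reads and over 0.5 FPKM, with the longest such row per symbol (12030 of 56951 symbols). Differences in counts were tested with edgeR 4.0.16 (quasi-likelihood F test after TMM) in R 4.3.3, spread with limma 3.58.1 on absolute deviations of log2 CPM from the group mean, and the Utrn to Dmd ratio and correlations by permutation (scipy 1.17.1, 100000 resamples). Benjamini-Hochberg adjustment was over all genes tested. Alternatives were DESeq2 1.42.0, limma on log2(FPKM + 0.1) and log2(FPKM + 1), Wilcoxon tests, other size factors and filters, summed rows, a block for label number, a covariate for clock genes (score, mean z of Bmal1, Npas2, Clock, Nfil3 and Cry1 minus that of Dbp, Nr1d1, Nr1d2, Per3, Tef, Hlf and Ciart), removal of each library's trend with GC content or exon length (natural spline, as an offset), and leaving out each library. Leaving out ADV mice 25 and 34, alone and with the GC trend removed, the GC trend in the spread test and the 28 libraries with shared label numbers were added after seeing the data. The edgeR and spread tests were run on simulated counts with the same dispersion for every gene. The permutation tests were not checked in this way.

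The members and gene lists were chosen with earlier results of these data known. Named genes were the 8 members and the 5 genes most like Dmd and Utrn. List genes were named if they had an edgeR FDR under 0.05 or, where fewer than 2 had one, as the 2 most abundant. Sspn, Pomk, Dolk, Dpm1, Ank2, Acta1, Ckm, Dcn, Lum, Retn and the called cell type markers were named after their values were seen. Of the genes that the rule named, 3 are not reported here. GC content and exon structure came from GENCODE vM39, a later release, whose starts and ends were the same for all 38878 transcripts of unchanged version. With 18875468.5 to 28512674 read pairs on exons per library, the counting error was 1.89% for Dmd and 9.89% for Sntb1 in LD.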

Additional observations from a re-analysis of the deposited data

How the results depend on the processing

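Sgcb stayed lower in ADV under all alternatives run, but its call was lost with the GC content trend removed (-0.0822, FDR = 0.124), with that and mice 25 and 34 left out (-0.0912, FDR = 0.112), with the clock score in the model (-0.13, FDR = 0.325) and with the label number as a replicate block (-0.13, FDR = 0.0581; without the block, the same 28 libraries gave -0.13, FDR = 0.01999). No other member was called under any alternative. The sign of Sgcd (-0.21) turned under no alternative, and the signs that did turn were as follows. With the GC content trend removed, the log2 fold change was 0.0231 for Dmd, -0.00906 for Sgca and 0.0285 for Dtna. With the length trend removed it was 0.0200017 for Dmd, 0.00533 for Utrn, 0.0128 for Dag1 and 0.0464 for Dtna. Without mice 25 and 34 it was 0.00631 for Dmd and 0.00461 for Utrn, and with the GC content trend also removed 0.0756 for Dmd, 0.00199 for Utrn, -0.0311 for Sgca and 0.00862 for Dtna. Sntb1 was -0.0866 with the clock gene score, and Dtna 0.00354 as a ratio of mean FPKM. The log2 ratio of SDs turned to -0.0931 for Utrn and -0.0373 for Sgcd without mice 25 and 34, and to -0.13 for Sgcb with the GC content trend removed. The causes were not tested.

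Leaving out each library in turn gave log2 fold changes of -0.166 to -0.144 for Sgcb, called each time, and of -0.0497 to 0.00577 for Dtna. The Utrn to Dmd log2 ratio differed by -0.0290 to 0.0201 between the groups over these, and by 0.00129 without mice 25 and 34.

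The count of genes past an FDR of 0.05 and a fold change of 1.3 was 252 by edgeR, 190 to 302 with each library left out, 307 by DESeq2, 1301 with no limit on fold change, 124 by limma on log2(FPKM + 1), 167 with the GC content trend removed, 116 with mice 25 and 34 also left out, and 0 with the clock gene score (edgeR, 1427 at an unadjusted p under 0.05). The spread test called 4 genes, 1 to 5 with each library left out, 1 with deviations from the median, 1 without mice 25 and 34, and 0 after the clock gene score (limma, 1097 at an unadjusted p under 0.05).

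Label numbers are shared by 14 LD and 14 ADV mice and do not pair them by any source used. Of the 14 pairs, 6 had deviations correlated over 0.1 (range -0.261 to 0.429), and 3 correlated best with their own number. With the block 137 genes were called, against 151 in the same 28 libraries without it. The Utrn to Dmd log2 difference within numbers was -0.0474 (exact sign-flip test, p = 0.520).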
